A study of Homo sapiens with 4 samples.

Results

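Keratin transcripts were described in 4 PAS-seq libraries of 2 human oesophageal squamous cell carcinoma lines, KYSE30 and TE-1. PAS-seq reads the 3′ ends of polyadenylated RNA, and the authors grouped neighbouring polyadenylation sites (PAS) into clusters (PACs). The 10 genes were the keratins used to tell apart layers and kinds of epithelium: KRT5, KRT6A, KRT7 and KRT8 of type II and KRT13, KRT14, KRT15, KRT17, KRT18 and KRT19 of type I, the type II genes and KRT18 lying on chromosome 12 and the others on chromosome 17. A PAC was given to a gene when its dominant site, in the library with the most reads, lay on the same strand within the GENCODE v44 span. Of 17627 PACs, 11 belonged to 8 of the 10 genes, and 12029 genes had a listed PAC in all.

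Each line had 1 library of control cells, which received PBS, and 1 of cells that received l-lactate, at 20 mM and over 24 h. The dose and time came from the study's text and not from the sample labels. The cell line field of the control samples read KYSE32 and TE-3 while their titles carried the KYSE30 and TE-1 prefixes, and the titles were followed here. Both are established tumour lines grown in culture, and a keratin's level cannot be divided here between the number of cells that expressed it and the RNA per cell.

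Keratins form the intermediate filaments of epithelial cells, and a filament needs a type I and a type II partner. KRT8 and KRT18 are the pair of simple, single-layered epithelia, KRT7 and KRT19 are typical of ducts and glands, KRT5 and KRT14 (with KRT15) mark the basal layer of stratified squamous epithelium, and KRT4 and KRT13 mark the layers above it in the oesophagus. KRT6A, KRT16 and KRT17 are induced in wounded or stressed squamous epithelium. Squamous tumours often keep some of these genes and gain simple-epithelial ones.

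The values were RPM, the reads (tags) of a cluster scaled to the total of its library (named TPM by the authors), summed over a gene's PACs. The step between values gave library totals of 7425554 (KYSE30 control), 7174991 (KYSE30 l-lactate), 10393799 (TE-1 control) and 8468958 tags (TE-1 l-lactate). The lowest listed PAC had 1.058 RPM, 8 to 11 tags being the lowest value over the libraries, and PACs of 1 base had at least 3.07 RPM. The authors had removed low sites, so a gene without a PAC is called not listed, which does not mean absent. Since there was 1 library per line and condition, the 95% intervals below, exact for levels and ratios and Wilson for shares, cover counting error only. For the comparison of lines a gene was called when its log2(RPM + 1) ratio passed 2-fold the same way in the control pair and in the l-lactate pair, which measures agreement of 2 pairs and is no test.

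Each of the 8 listed genes had 1 main 3′ end, and its sequence is shown because the level of the gene was read there. The last 30 nt before the dominant site, from GRCh38 in the sense of the gene, are given 5′ to 3′, with the AAUAAA poly(A) signal (written AATAAA in DNA) in capitals.
KRT8, chr12:52897192-52897221, minus strand: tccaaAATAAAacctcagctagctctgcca
KRT18, chr12:52952872-52952901, plus strand: gcaggaggccAATAAAaagttcagagttca
KRT7, chr12:52248892-52248921, plus strand: gcagcctcattctgaggcctgagtgatcca
KRT6A, chr12:52487184-52487213, minus strand: tgtttgcaattgctaAATAAAgcagattta
KRT19, chr17:41523617-41523646, minus strand: cctgccAATAAAaatttatggtccaaggga
KRT13, chr17:41500987-41501016, minus strand: ttattcAATAAAgtttcctgcctttctgca
KRT15, chr17:41513749-41513778, minus strand: atgtAATAAAgaattacttttccttttgca
KRT17, chr17:41619442-41619471, minus strand: tgatgacAATAAAgcttgttgactcagcta

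AAUAAA stood in 7 of the 8 windows of main sites, and in 62.8% of the windows of all PACs, minor ones included. The minor PACs of KRT7, KRT8 and KRT19, described below, had no AAUAAA, so 7 of the 11 keratin PACs held it. The signal ended 9 nt before the dominant site in KRT6A and 14 to 20 nt before it in the other 6. The main KRT7 window held neither AAUAAA nor the common variant AUUAAA, at least 1 of which was found in 78.9% of all windows. The motif UGUA, the sequence bound by NUDT21 (CFIm25), a subunit of the 3′ end processing factor CFIm, was searched on the sense strand in the 100 nt before the site. It was present at KRT15 (4 copies, the nearest 25 nt from the site) and KRT6A (2 copies, the nearest 58 nt away), not at the other 6 main sites, and in 57.0% of all PACs, minor ones included. The minor KRT19 PAC had 1 copy, 37 nt from its site, and the minor PACs of KRT7 and KRT8 had none. These matches describe letters and not bound sites.

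The main sites lay at the annotated gene end for all but KRT7. They were in the last exon and 0 to 8 nt before the end of the GENCODE span in KRT8, KRT18, KRT6A, KRT19, KRT13, KRT15 and KRT17. The KRT7 site, in exon 9 of KRT7-201, was 3265 nt before the end of the span, which longer transcripts extend. All 11 PACs kept the same dominant site in every library that listed them. Within the main PAC the dominant site held from 43.6% of the reads (KRT7 in KYSE30 with l-lactate) to 95.7% (KRT15 in the same library), so KRT7 ends were spread over several positions of a 21 nt cluster and KRT15 ends were almost all at 1 base.

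KRT8 was the most abundant of the 10 keratins in every library. It was listed at 2154 RPM in KYSE30 control cells, 2229 RPM in KYSE30 cells with l-lactate, 1004 RPM in TE-1 control cells and 969 RPM in TE-1 cells with l-lactate. These levels ranked 60 and 60 among 10931 and 10889 listed genes in KYSE30, and 135 and 138 among 10681 and 10682 in TE-1. Its type I partner KRT18 was listed at 293, 270, 175 and 166 RPM in the same order. Both genes of the simple-epithelial pair were therefore listed in all 4 libraries, and both were higher in the 2 KYSE30 libraries than in either TE-1 library.

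KRT8 was lower in TE-1 by 2.15-fold (2.09 to 2.20) in the control pair and 2.30-fold (2.24 to 2.36) with l-lactate, and was called. KRT18 was lower by 1.68-fold (1.58 to 1.79) and 1.63-fold (1.52 to 1.75) and did not pass 2-fold. Reads were counted at transcript ends, so RPM was set side by side between genes without a length correction. PCR copies were not told apart, and differences in recovery between genes were not measured, so the ratios are of reads and not of transcripts. There were 7.34 KRT8 reads per KRT18 read (7.02 to 7.68) in KYSE30 control cells and 8.26 (7.88 to 8.66) with l-lactate, against 5.75 (5.47 to 6.05) and 5.84 (5.52 to 6.19) in TE-1. The excess of KRT8 reads over KRT18 reads was thus present in every library and was larger in KYSE30.

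Both genes have many processed copies in the genome. GENCODE v44 lists 51 KRT8 and 68 KRT18 pseudogenes, with 5 for KRT19 and 8 for KRT17, and none of these 132 had a listed PAC. The 150 nt before the KRT18 site matched 13 other places in the genome at 95% identity or more, and those before the KRT8 site 1 place, the best match of each at 98.0%. How the authors' alignment placed reads shared with such copies was not given in the sources used here, so the levels of KRT8 and KRT18 are less certain than those of KRT7, KRT13 and KRT15, which had no match over 90% of the length. The KRT19 window matched 6 other places, the best at 93.2% identity, the KRT17 window 3, the best at 92.0%, and the KRT6A window 1, at 85.9%. The annotated end of KRT14, which was not listed, matched 1 place at 94.1%. The levels of KRT17 and KRT19 and the absence of KRT14 from the lists carry this limit too.

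KRT7, a type II keratin of ductal and glandular epithelium, was the only one of the 3 genes listed in all 4 libraries with a higher level in TE-1. It stood at 440 and 357 RPM in KYSE30 (control, then l-lactate) and at 647 and 623 RPM in TE-1. The TE-1 level was 1.47-fold (1.41 to 1.53) and 1.74-fold (1.66 to 1.83) higher, under the 2-fold mark in both pairs. KRT8 reads outnumbered KRT7 reads 4.89 and 6.24 to 1 in KYSE30 but 1.55 to 1 in both TE-1 libraries. KRT7 thus made up far more of the type II keratin reads in TE-1.

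KRT19, the type I keratin of ductal and transitional epithelium and a partner of KRT8, differed most between the lines of the genes listed in both. It was listed at 1699 and 1574 RPM in KYSE30, the second highest keratin there, was not listed in TE-1 control cells, and had 2.95 RPM (1.91 to 4.36), 25 tags, in TE-1 cells with l-lactate. The l-lactate pair gave a level 533-fold lower in TE-1 (361 to 824). In KYSE30 there were 5.79 and 5.83 KRT19 reads for each KRT18 read, so KRT19, not KRT18, led the listed type I keratins of that line. The limit on KRT18 from near copies applies to these ratios.

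KRT13, KRT15 and KRT6A were listed in KYSE30 only. KRT13, the suprabasal keratin of non-cornified squamous mucosa, had 728 RPM in control cells and 684 RPM with l-lactate, ranks 176 and 192 of all listed genes. KRT15, a basal-layer keratin, had 73.4 and 93.5 RPM. KRT6A, an inducible keratin, had 20.3 RPM (17.2 to 23.8) and 40.4 RPM (35.9 to 45.3). None of the 3 had a PAC in either TE-1 library, and a ratio to a gene that is not listed has no fixed size, so no fold is given.

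KRT17, the type I keratin of stressed and wounded epithelium, showed the opposite distribution. It was listed at 245 RPM in TE-1 control cells and 187 RPM in TE-1 cells with l-lactate, and in neither KYSE30 library. With KRT18, at 175 and 166 RPM, it made up nearly all the type I keratin among the 10 genes in TE-1. The basal-layer pair KRT5 and KRT14 was not listed in any library.

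**Figure D1:**
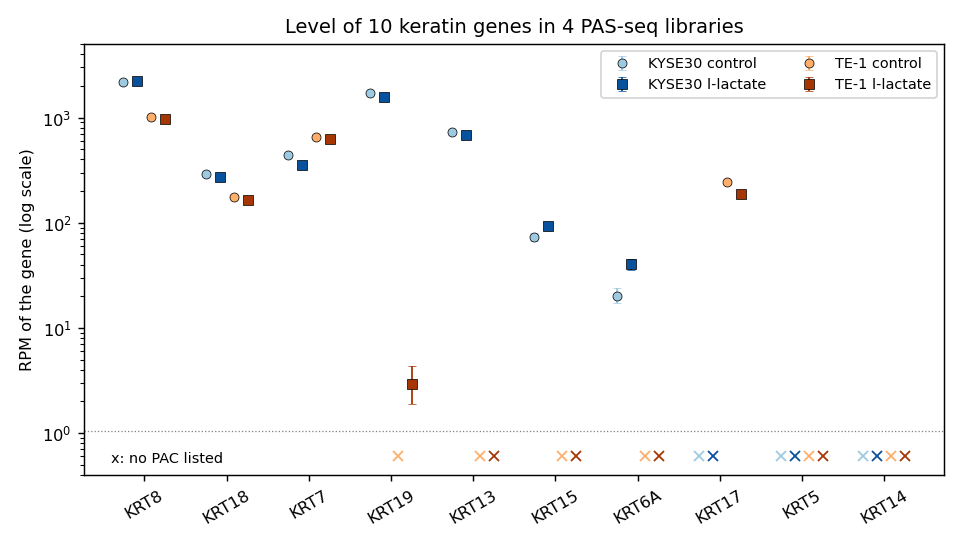
RPM of the 10 keratin genes (log scale) in each of the 4 libraries, with 95% counting intervals; crosses mark genes with no PAC listed and the dotted line the lowest listed PAC, 1.058 RPM. KRT8, KRT18 and KRT7 stand in all 4 libraries, KRT19, KRT13, KRT15 and KRT6A in KYSE30 (KRT19 also at 2.95 RPM in TE-1 with l-lactate), and KRT17 in TE-1.

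Of the 8 listed keratins, 5 were called lower in TE-1 (KRT6A, KRT8, KRT13, KRT15 and KRT19) and 1 higher (KRT17). Over all 10863 genes tested, 17.6% were called lower and 15.3% higher. Much of the call rested on listing: 1267 of the tested genes were not listed in either library of 1 line, and 1227 of these were called. Among genes listed in all 4 libraries 23% were called in either direction, and KRT8 was the 1 called of the 3 keratins (KRT7, KRT8 and KRT18) in that class. The median log2 ratio over all genes tested was -0.03 in the control pair and 0.00 in the l-lactate pair. No median is given for the 8 keratins, since it would rest on ratios to genes that were not listed.

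A limma fit of log2(RPM + 1) on line and treatment, which used the libraries of both conditions as the spread and left 1 residual degree of freedom, was added after the data were seen. All 8 listed keratins passed its line term, but so did 74% of all genes. The Benjamini-Hochberg adjusted p from limma was 5.14e-07 for KRT8, 1.96e-05 for KRT18 and 4.73e-05 for KRT7. The other 5 were not listed in 1 or more libraries and entered with a constant in their place, so that their p was set by the listing and is not given.

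**Figure D2:**
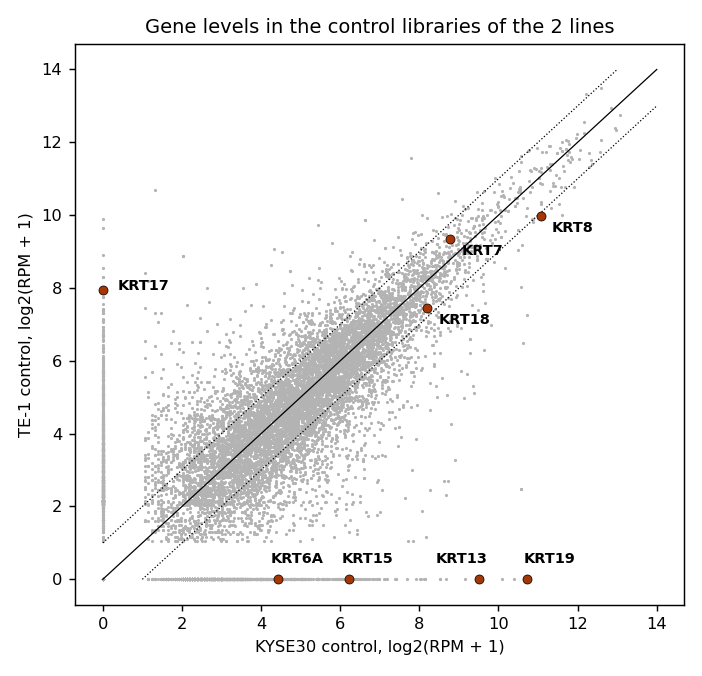
Level of every gene with a listed PAC, log2(RPM + 1), in KYSE30 control (horizontal) and TE-1 control cells (vertical), with the listed keratins as large points, the diagonal as a solid line and 2-fold as dotted lines. KRT19, KRT13, KRT15 and KRT6A lie on the horizontal axis and KRT17 on the vertical axis, while KRT7 and KRT18 lie within the dotted lines.

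Another 5 keratin genes had listed PACs. KRT80, a type II keratin, had 322, 285, 204 and 221.5 RPM in KYSE30 control, KYSE30 l-lactate, TE-1 control and TE-1 l-lactate cells, and KRT10, a type I keratin of differentiating epidermis, had 130, 118, 160 and 156 RPM. Neither was called. KRT4, the type II partner of KRT13 in oesophageal mucosa, had 14.4 and 15.6 RPM in KYSE30 and was not listed in TE-1, so that it shared the distribution of KRT13 at a far lower level. KRT86 had 21.1, 16.0, 4.14 and 7.91 RPM, but its annotated span takes in the end of KRT7, and its reads include the cluster that crosses that end. KRT34, a hair keratin outside the lists, had 4.23 and 3.66 RPM in TE-1 alone.

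Listed type I and type II keratin reads were near balance in KYSE30 and far from it in TE-1. The sums take KRT18 as listed, and its end had 55 other genomic matches at 90% identity or more, against 10 for KRT8. If reads shared with such copies were lost, the ratios would move, and this was not tested. Summed over the 13 listed keratin genes, type I reached 2924 RPM and type II 2972 RPM in KYSE30 control cells, a ratio of type II to type I of 1.02 (0.997 to 1.04). With l-lactate the sums were 2739 and 2944 RPM, a ratio of 1.07 (1.05 to 1.10). In TE-1 control cells they were 583 and 1858 RPM, a ratio of 3.19 (3.09 to 3.28), and in TE-1 cells with l-lactate 515 and 1822 RPM, a ratio of 3.54 (3.42 to 3.66). Keratins made up 0.590% and 0.568% of the KYSE30 libraries and 0.244% and 0.234% of the TE-1 libraries.

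The lower total in TE-1 lay mainly in type I. KRT19 and KRT13, at 1699 and 728 RPM, supplied most type I reads of KYSE30 control cells, and KRT17 and KRT18, at 245 and 175 RPM, most of those in TE-1. On the type II side KRT8 led in both lines. The sums rest on listed 3′ ends at steady state, their intervals do not cover reads shared with near copies, and no protein was measured.

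**Figure D3:**
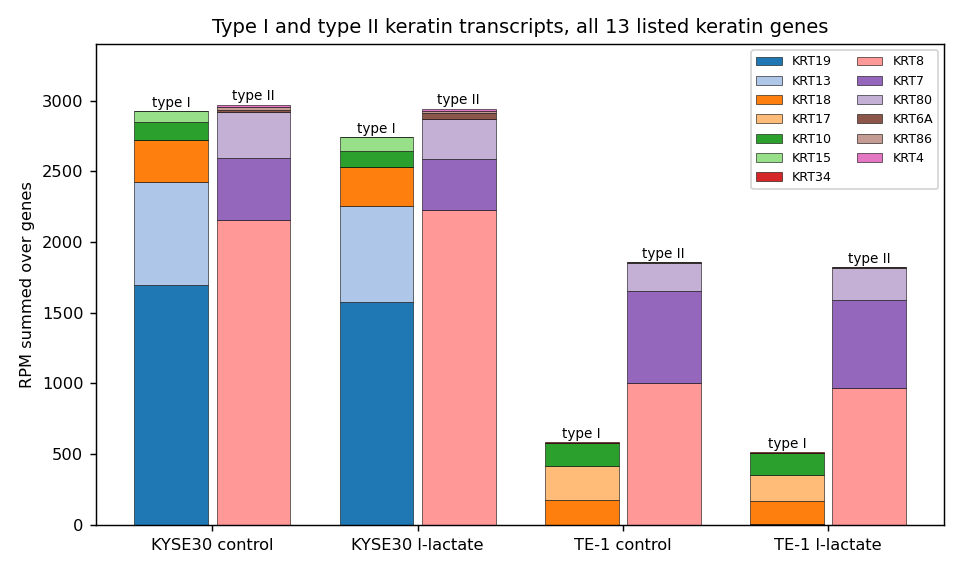
RPM summed over type I (left bar of each pair) and type II keratin genes (right bar) in the 4 libraries, each bar stacked by gene over the 13 listed keratin genes. The 2 bars are of nearly equal height in KYSE30 (2924 and 2972 RPM in control cells), while in TE-1 the type I bar is the shorter (583 against 1858 RPM). The limit from near copies of KRT18 and other keratins applies to these sums.

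Along chromosome 17 the listed type I keratins of the lines took different places. KRT13, KRT15 and KRT19 follow one another with gaps of 8.0 and 1.1 kb and no other coding gene between them, and all 3 were listed in KYSE30 and, but for 25 tags of KRT19, not in TE-1. Beyond KRT19 come KRT9, KRT14 and KRT16, none of them listed, and then KRT17, whose 3′ end is 118.5 kb from that of KRT13 and which was listed in TE-1. KRT34, the other type I keratin listed in TE-1 alone, lies on the far side of KRT13, its 3′ end at -123.3 kb on that scale, so the genes listed in TE-1 were not neighbours. KRT10, listed in all 4 libraries, lies farther out, at -682.9 kb. The gene spans in GRCh38 are chr17:41500981-41505705 for KRT13, chr17:41513745-41522529 for KRT15, chr17:41523617-41528308 for KRT19 and chr17:41619442-41624842 for KRT17, all on the minus strand. On chromosome 12, KRT8 (chr12:52897187-52949954, minus strand) and KRT18 (chr12:52948871-52952906, plus strand) overlap head to head and were both listed in all libraries, whereas KRT6A (chr12:52487176-52493257) and KRT5 (chr12:52514575-52520530), 21.3 kb apart on the minus strand, differed, as only KRT6A was listed. KRT7 spans chr12:52232520-52252186 on the plus strand and KRT14 spans chr17:41582279-41586895 on the minus strand.

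**Figure D4:**
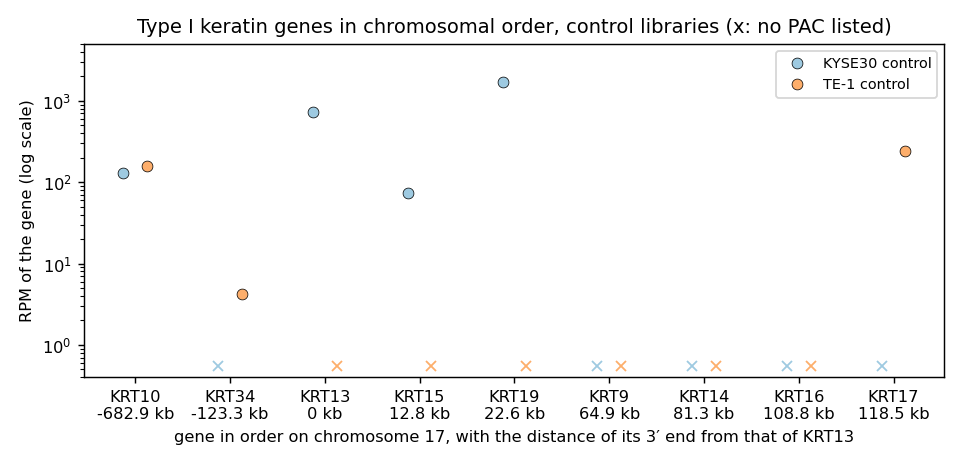
RPM (log scale) of the listed type I keratin genes of chromosome 17 and of KRT9, KRT14 and KRT16 in their order, with the distance of each 3′ end from that of KRT13 in kb (negative on the KRT10 side), for the control library of each line; crosses mark genes with no PAC listed. KRT13, KRT15 and KRT19 are listed in KYSE30 control cells, KRT34 and KRT17, on either side of them, in TE-1 control cells, and KRT10 in both.

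With l-lactate KRT6A was the keratin of KYSE30 that differed most from control cells. The log2 ratios that follow compare RPM without the pseudocount. KRT6A was at 20.3 RPM (151 tags) in control cells and 40.4 RPM (290 tags) with l-lactate, 1.99-fold higher (1.63 to 2.44). It was the 1 keratin of 7 tested that passed 1.5-fold, beside 4.49% of 9784 genes, of which 212 were higher and 227 lower. On the log2(RPM + 1) scale 73 genes had a ratio at least as large as that of KRT6A. KRT15 was next, 1.27-fold higher, with a log2 ratio of 0.35 (0.18 to 0.52).

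The ratios of the more abundant keratins were nearer to 0. KRT8 had a log2 ratio of 0.05 (0.02 to 0.08), KRT13 of -0.09 (-0.15 to -0.03), KRT19 of -0.11 (-0.15 to -0.07) and KRT18 of -0.12 (-0.21 to -0.03), and KRT7 had -0.30 (-0.38 to -0.23), from 440 to 357 RPM. These intervals leave out 0 for all 7 keratins, but they cover counting error only, and all except KRT6A were within the range from -0.572 to 0.56 that held the middle 95% of all genes tested. That range was taken on the log2(RPM + 1) scale and includes genes near 5 RPM, far below the abundant keratins. KRT6A, KRT15 and KRT8 were thus higher in the treated library and KRT7, KRT13, KRT18 and KRT19 lower, so the simple-epithelial keratins KRT8 and KRT18 went opposite ways, and none but KRT6A passed 1.5-fold.

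In TE-1 none of the 4 keratins tested passed 1.5-fold with l-lactate, beside 4.29% of 9543 genes, of which 248 were higher and 161 lower. KRT17 was the farthest from 0, going from 245 to 187 RPM, a log2 ratio of -0.39 (-0.48 to -0.30). KRT8 had -0.05 (-0.09 to -0.01), KRT7 -0.05 (-0.11 to -0.001) and KRT18 -0.07 (-0.18 to 0.03). The middle 95% of all genes tested, on the log2(RPM + 1) scale, ran from -0.49 to 0.601. KRT6A and KRT15, the keratins with the highest ratios in KYSE30, were not listed in TE-1, so their response could not be compared between lines.

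In the limma fit over both lines, no gene passed the treatment term at an adjusted p of 0.05, with 1045 genes at an unadjusted p under 0.05. The adjusted p of limma was 0.638 for KRT6A, 0.516 for KRT7 and 0.510 for KRT19. KRT19 was not listed in TE-1 control cells, nor KRT6A in either TE-1 library. Both entered there with a constant, so their values rest in part on the listing. This fit asks for the same change in both lines and has 1 residual degree of freedom, so a gene listed in 1 line only, such as KRT6A, can hardly pass it.

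**Figure D5:**
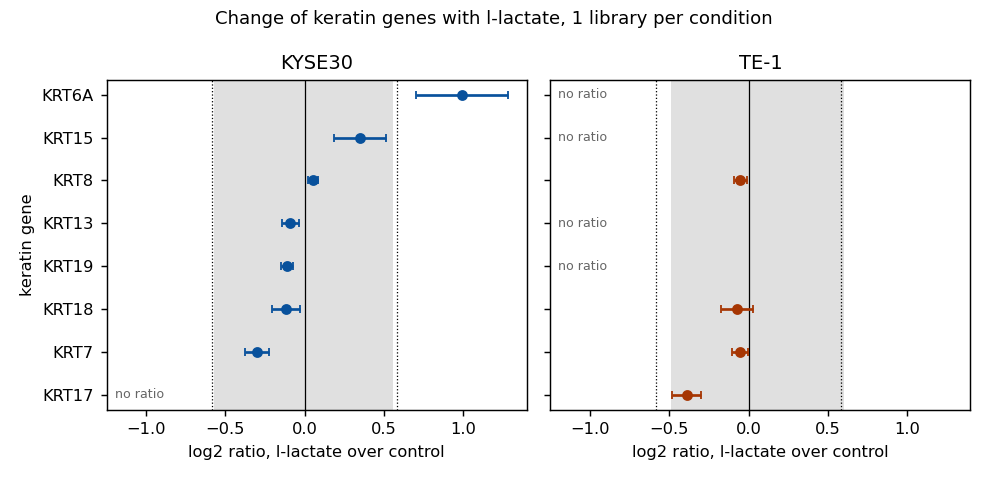
Log2 ratio of RPM, l-lactate over control, of each keratin in KYSE30 (left) and TE-1 (right), with 95% counting intervals. Dotted lines mark 1.5-fold, the grey band the middle 95% of all genes tested, taken on the log2(RPM + 1) scale, and genes not listed in both conditions have no ratio. KRT6A in KYSE30, at 0.99, is beyond the dotted line and the band, and KRT17 is the farthest from 0 in TE-1, at -0.39.

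The minor PACs of the keratins took small shares of their genes. A second KRT7 PAC at chr12:52243877-52243886, in no annotated exon, was listed in TE-1 only, at 10.01 and 9.80 RPM or 1.55% (1.28 to 1.87) and 1.57% (1.27 to 1.95) of the gene. A second KRT8 site at 52948650, in exon 3 of KRT8-212, held 3.90, 3.34, 8.66 and 3.31 RPM over the 4 libraries in the usual order. A second KRT19 site at 41526270, in no exon, held 3.50 and 3.34 RPM, 0.21% of the gene, in KYSE30. A further cluster, chr12:52252179-52252671, crosses the end of KRT7 and held 12.3, 8.92, 4.14 and 5.31 RPM. Its dominant site in KYSE30 control cells, the library where it was highest, lay 1 nt past that end, so it was not counted for KRT7. In KYSE30 cells with l-lactate its dominant site was 52252186, the last base of the span.

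Poly(A) site choice is the subject of the study. Among the listed PACs within the spans, the main PAC held nearly all the reads of each listed keratin. The use of a PAC, its share of the gene's RPM, was compared for genes with at least 2 PACs that each reached 5 RPM in 1 or more of the libraries compared, and called at 10 percentage points, between the lines in both pairs. KRT7 and KRT8 met this between the lines, where the change in the pair with the smaller one was 1.55 and 0.191 percentage points and neither was called, beside 28.3% of 2614 genes. With l-lactate in TE-1 the changes were 0.0251 points for KRT7 and 0.521 points for KRT8, where the minor site went from 0.86% (0.70 to 1.06) to 0.34% (0.24 to 0.49) of the gene, and again neither was called, beside 13.5% of 2209 genes. The minor shares were too small in each library compared for a change of 10 percentage points. The lack of calls therefore adds nothing to the shares themselves. No keratin of the 10 could be compared in KYSE30, since none had 2 PACs at that level within its span. The span rule left out the cluster that crosses the end of KRT7, at 12.3 RPM in KYSE30 control cells and 8.92 RPM with l-lactate, so its use was not compared.

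Genes that anchor keratins or build the squamous envelope differed between the lines too. Of 13 desmosome and plakin genes listed of 19, 7 were called lower in TE-1, against 17.6% of all genes, and none higher, with a median log2 ratio of -1.34 in the control pair and -1.02 in the l-lactate pair. COL17A1, the hemidesmosomal collagen of basal cells, had 140 and 136 RPM in KYSE30 and was not listed in TE-1. DSC3, a desmosomal cadherin of squamous epithelium, had 41.1 and 33.3 RPM in KYSE30 alone. DST, a plakin that ties keratin to hemidesmosomes, had 412 and 422 RPM in KYSE30 against 32.2 and 37.9 RPM in TE-1, and PPL, the cornified-envelope plakin periplakin, 211 and 213 against 66.5 and 66.0 RPM. DSP, desmoplakin, which links keratin to desmosomes, was not called, at 187 and 180 RPM in KYSE30 and 257 and 306 RPM in TE-1.

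Most of the cornified envelope genes that were listed stood in KYSE30 alone. Of 8 listed of 15, 7 were tested and 6 were called lower in TE-1, against 17.6% of all genes, and none higher. Of these 8, 5 had no PAC in TE-1, so that their ratios have no fixed size, and genes of that kind were nearly all called. SPRR3, the small proline-rich protein of oesophageal epithelium, had 242 and 283 RPM in KYSE30, IVL (involucrin) 61.9 and 52.96 RPM and SCEL (sciellin) 58.04 and 47.2 RPM, and none of the 3 was listed in TE-1. CSTB, a protease inhibitor expressed in most cells, was not called, at 80.8, 92.3, 129 and 119 RPM in the usual order. SPRR3, IVL and SCEL, like KRT13 and KRT4, are genes of the upper layers of the mucosa. These 3 had the largest ratios between the lines among the called genes of the list, and naming by that rule favours genes not listed in TE-1. CNFN was called too and had 5.10 RPM in TE-1 control cells.

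Other intermediate filament genes went both ways. Of 6 tested, 2 were called lower and 2 higher in TE-1, against 17.6% and 15.3% of all genes, with median log2 ratios of -0.12 and 0.01. The lamin LMNA, a nuclear filament, had 306, 274, 264 and 252 RPM and LMNB1 74.9, 64.7, 73.0 and 71.1 RPM, and neither was called. LMNB2, another lamin, had 91.4 and 99.9 RPM in KYSE30 against 11.2 and 11.1 RPM in TE-1, and INA, a neuronal filament gene, 96.6 and 108 against 28.9 and 25.6 RPM. SYNC (syncoilin), a filament protein of muscle, had 51.0 and 48.4 RPM in TE-1 alone. Of the 4 other keratins of the list that were tested, only KRT4 was called between the lines. With l-lactate no gene of these 4 lists was called in KYSE30, beside 4.49% of all genes tested. Tested there were 4 other keratins, 13 desmosome and plakin, 5 other intermediate filament and 7 cornified envelope genes. In TE-1 the numbers tested were 3, 10, 6 and 2 in that order. There 2 genes were called, beside 4.29% of all genes tested. KRT86 was called higher, from 4.14 to 7.91 RPM, but all its reads in TE-1 control cells were those of the cluster that crosses the end of KRT7. CNFN, a cornified envelope protein, was called lower, from 5.10 RPM to not listed, where the size depends on the pseudocount.

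Markers of cell type differed along with the keratins between the lines. All 5 epithelial markers were called lower in TE-1, against 17.6% of all genes, and their summed level was 1867 and 1894 RPM in KYSE30 against 81.9 and 94.0 RPM in TE-1. EPCAM, an epithelial adhesion molecule, had 563 and 635 RPM against 30.7 and 36.4 RPM, while CDH1, the epithelial cadherin, had 204 and 228 RPM in KYSE30, was not listed in TE-1 control cells and had 1.30 RPM in TE-1 cells with l-lactate. Of the 5 mesenchymal markers 4 were listed, with sums of 140 and 92.5 RPM in KYSE30 and 36.5 and 40.03 RPM in TE-1: ZEB1, a repressor of epithelial genes, was listed in TE-1 alone, at 19.6 and 25.03 RPM, CDH2 had 2.15, 2.09, 14.2 and 15.0 RPM, FN1 was listed mostly in KYSE30 and SPARC there alone, and VIM was not listed. Their part in the keratin differences was not tested.

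Among 6 squamous markers, PERP had 331, 343, 101 and 143 RPM, TRIM29 9.43, 12.8, 62.1 and 72.9 RPM and FAT2 4.04 and 10.3 RPM in KYSE30 alone, while TP63, SFN and DSG3 were not listed, so that the squamous label of the lines rested on few of its markers among the listed PACs. Fibroblast markers summed to 12.5 and 8.50 RPM in TE-1 and none was listed in KYSE30, no blood marker of 3 was listed, and of 3 endothelial markers CDH5 was listed, in KYSE30, at 16.2 and 11.2 RPM.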

How the data were processed

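PAS-seq libraries of 4 samples were analysed, 1 per line and treatment. Per the study's methods, the authors trimmed reads with the FASTX-Toolkit, aligned them to GRCh38 (GRCh38.p14 in the submitters' processing notes) with HISAT2, called sites and PACs with CAGEr and removed low sites. The libraries were stranded. The treatment of reads with several matches was not given in the sources used here. The deposited values are RPM (named TPM by the authors) per PAC and for its dominant site. Each value was a whole multiple of 1 step per library, within 0.0052 steps, the rounding of the values. That step was taken as 1 tag, and the tags, library totals and intervals rest on this.

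PACs were joined across libraries by cluster number and given to GENCODE 44 spans. Genes were tested when a library compared reached 5 RPM; ratios used a pseudocount of 1. Calls were 2-fold in both pairs between lines, 1.5-fold with l-lactate and 10 percentage points for PAC use. The PAC counts and shares carry exact Poisson, Clopper-Pearson and Wilson 95% intervals. PCR copies are not told apart, so intervals cover counting error only. BLAST 2.17.0 searched for copies, and limma 3.58.1 gave the only adjusted p-values. Python 3.11.15, pandas 2.3.3, SciPy 1.17.1 and R 4.3.3 were used. The calls and the limma fit were run on simulated tags with known changes. Their spread was set and not taken from these libraries, and the l-lactate change was the same in both lines. That run checked the code and did not measure error rates in these data.

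Named genes were all members and, in each other list, up to 4 genes with the highest mean RPM and up to 3 called genes with the largest ratio between the lines; cell type markers and KRT34 stand outside this rule. The members and lists were chosen with earlier results of these data known. Alternatives changed the pseudocount, the filter, the fold, the scaling, the PACs counted and the span.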

Additional observations from a re-analysis of the deposited data

Results flagged for a closer look

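KRT8 met the condition for a change in opposite directions with l-lactate in the 2 lines: its log2(RPM + 1) ratio was 0.049 in KYSE30 (2154 to 2229 RPM) and -0.051 in TE-1 (1004 to 969 RPM). With 1 library per condition the difference between the lines was not tested. Both ratios were far under the 1.5-fold mark.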

How the results depend on the processing

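The count of 6 keratins called between the lines was unchanged, and the same 6 genes were called, with a pseudocount of 0.5 or 5, no filter on low genes, median-of-ratios or TMM scaling, only PACs in 3′ UTRs, only PACs of 5 RPM, and spans extended by 1000 bases; a 1.5-fold mark called 7, adding KRT18, and limma, added after the data were seen, 8. In KYSE30 with l-lactate the 1 call (KRT6A) became 0 at 2-fold and 0 with limma. In TE-1 with l-lactate the 0 calls became 1 without the filter on low genes, since KRT19 at 2.95 RPM, not listed in control cells, then entered. Of 125 log2 ratios of the keratins under these settings 123 stayed within the counting interval. The others were KRT19 between the lines in the l-lactate pair, -7.63 with a pseudocount of 5, and KRT8 with l-lactate in TE-1, -0.10 under TMM. Ratios to a library where the gene was not listed were left out of the 125. This leaves out KRT6A, KRT13, KRT15 and KRT17 between the lines and KRT19 in the control pair, whose sizes depend on the pseudocount. The number of other keratins called between the lines went from 1 to 2 with spans extended by 1000 bases and at the 1.5-fold mark. Counts of the further lists moved too in some settings. Other intermediate filament genes went from 4 to 5 with the extended spans, and desmosome and plakin genes from 7 to 9 at 1.5-fold. Counts of PAC use, between the lines and in TE-1, stayed 0. None of the settings tried for PAC use extended the span. The planned edgeR fit was not run. The limma fit with line as a term is the one that pairs control and l-lactate libraries, within lines, and it called no gene for treatment; no replicate could be left out. The removal of low sites before deposit limits the genes that are not listed: low keratin expression in the other line would not be seen, below 1.058 RPM for any PAC and below 3.07 RPM for a PAC of 1 base.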
